A study of Saccharomyces cerevisiae with 12 samples.

Results

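The 8 genes described here encode the enzymes that carry aspartate through homoserine and homocysteine to methionine in budding yeast, and they were picked by name out of the 6685 genes listed. They are HOM3 (YER052C), HOM2 (YDR158W), HOM6 (YJR139C), MET2 (YNL277W), MET17 (YLR303W), MET6 (YER091C), MET13 (YGL125W) and MET12 (YPL023C). All 8 were among the 6546 genes tested. Each of them read above the minimum of 10 in all 12 libraries, so none was kept by only its high groups. The 8 genes, and the lists of neighbouring steps used below, were chosen with earlier results of these data known. Counts of them set beside the share of all genes tested are therefore descriptive.

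The series asks in its title what phospholipid and histone methylation do in metabolism. Poly-A RNA was sequenced from a wild-type CEN.PK strain of mating type a (WT) and from a strain of the same background and mating type in which a KanMX cassette replaces CHO2 (cho2-delta::KanMX, called cho2). CHO2 encodes the enzyme that begins the methylation of phosphatidylethanolamine toward phosphatidylcholine, taking methyl groups from S-adenosylmethionine (SAM). Each strain was sampled in YPL, a rich medium of yeast extract, peptone and lactate, and at 1 h and 3 h after transfer to SL, which keeps the lactate, offers ammonium sulfate as nitrogen source and lacks amino acids, which gives 6 groups of 2 libraries. The labels do not say how many clones stand behind the cho2 libraries, and the 2 libraries of a group are called biological replicates without a word on separate cultures, so p-values measure only the spread between libraries, which may be technical.

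In yeast, aspartate is phosphorylated, reduced and reduced again to homoserine, a branch point that leads either to threonine or, after acetylation, to homocysteine. MET17 protein joins acetylhomoserine with sulfide to make homocysteine, and MET6 protein adds a methyl group carried by folate to make methionine, the precursor of SAM. Starvation for amino acids induces many genes of amino acid synthesis through Gcn4, and genes of sulfur metabolism are induced through Met4 when sulfur amino acids or SAM run short.

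Values are the authors' normalised read counts, given for library 1 and then library 2 of a group. The libraries held 3.17 M reads (M for mega) in the second WT library at 3 h and 9.17 M to 12.5 M in the other 11. CHO2 stood at 1570 to 4065 in the WT libraries and at 3.77 to 9.19 in the cho2 libraries, which is 4 to 12 reads. STE2, the receptor gene of a cells, read 692 to 1549 in all libraries, and MF(ALPHA)1, a pheromone gene of alpha cells, read 3.03 to 34.9. One library stood apart in scale: the median gene of the second cho2 library at 3 h was at -0.34 from the mean of the libraries on the log2 scale, and those of the other 11 at -0.07 to 0.17. The values are relative to each library, so a change in total RNA per cell, or in how many cells contribute, cannot be told apart from a change in a gene.

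The first question is how the genes moved when cells left the amino acids of the rich medium. In WT at 1 h, 6 of the 8 genes rose (limma, adjusted p under 0.05), against 33.7% of all genes tested that passed as higher. The median log2 change of the 8 was 3.33, against 0.18 for all genes tested. The genes that rose were HOM3, HOM6, MET2, MET17, MET6 and MET13, and the genes that did not pass were HOM2 and MET12. Of all values in a WT library, the 8 genes made up 0.113% to 0.128% in YPL and 2.34% to 2.71% at 1 h.

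HOM3 encodes aspartate kinase, the first and feedback-inhibited step. In WT it read 681 and 736 in YPL, 9685 and 9042 at 1 h, and 6512 and 5063 at 3 h. In cho2 it read 564 and 596 in YPL, 5093 and 5536 at 1 h, and 4961 and 3759.5 at 3 h. All 8 SL libraries lay above all 4 YPL libraries. HOM3 rose by 3.72 ± 0.17 in WT at 1 h (13.2-fold; limma adjusted p = 7.63e-15) and by 3.19 ± 0.17 in cho2 (9.17-fold).

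HOM2 encodes aspartate semialdehyde dehydrogenase, the second step. It read 1733 and 1540.1 in WT in YPL, 1952 and 1607 at 1 h, and 1543 and 1390.4 at 3 h. The cho2 libraries gave 1417 and 1352 in YPL, 2309.9 and 2181 at 1 h, and 2002 and 1877 at 3 h. HOM2 was the flattest of the 8 in WT, where the 1 h and YPL libraries overlapped (log2 0.12 ± 0.16, limma adjusted p = 0.557). In cho2 it rose by 0.70 ± 0.16 at 1 h (1.62-fold, limma adjusted p = 0.000953), with both 1 h libraries above both YPL libraries. The difference between those 2 changes did not pass (0.58 ± 0.23, limma adjusted p = 0.213).

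HOM6 encodes homoserine dehydrogenase, the last step shared by threonine and methionine synthesis. In WT it read 4039 and 2902 in YPL, 15369.6 and 9798 at 1 h, and 9656 and 6328 at 3 h. In cho2 it read 3442 and 3234 in YPL, 6632 and 6229.6 at 1 h, and 5958 and 4802 at 3 h. HOM6 rose by 1.84 ± 0.22 in WT at 1 h (3.63-fold, limma adjusted p = 1.17e-07) and by 0.95 ± 0.22 in cho2 (1.93-fold, limma adjusted p = 0.000829). Its replicates were far apart in WT, where library 1 was 1.39 times library 2 in YPL, 1.57 times at 1 h and 1.53 times at 3 h, while in cho2 the ratios were 1.06, 1.06 and 1.24. HOM2, HOM6 and MET6 read higher in library 1 in all 6 groups, as did 5.15% of the genes tested, and what the numbers mark was not tested.

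MET2 encodes homoserine O-acetyltransferase, which commits homoserine to the methionine branch. It read 421 and 603 in WT in YPL, 9908 and 10099 at 1 h, and 4169 and 4166 at 3 h. In cho2 it read 890.1 and 786 in YPL, 6264 and 5966 at 1 h, and 2832 and 2088 at 3 h. No library of one group overlapped those of another. MET2 rose by 4.31 ± 0.18 in WT at 1 h (19.5-fold, limma adjusted p = 1.35e-15) and by 2.87 ± 0.18 in cho2 (7.29-fold).

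MET17, for the enzyme that takes up sulfide into homocysteine, read 2253 and 2003 in WT in YPL, 115879.5 and 99097 at 1 h, and 37674 and 29054 at 3 h. In cho2 it read 8926 and 10743 in YPL, 47711.5 and 53627 at 1 h, and 19384 and 14631 at 3 h. The groups did not overlap, and WT in YPL was the lowest of the 6. MET17 rose by 5.66 ± 0.19 in WT at 1 h (50.5-fold, limma adjusted p = 1.69e-17) and by 2.37 ± 0.19 in cho2 (5.15-fold, limma adjusted p = 1.85e-10). At 1 h in WT, MET17 alone took 1.04% to 1.22% of all values in a library. The gene overlaps YLR302C by 12 bases in the R64 annotation and the sources used here do not say whether counting used strand; YLR302C read at 4.31% to 11.8% of MET17 in the 12 libraries. The other 7 genes overlap no gene of that annotation, although 679 listed names could not be matched to it.

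MET6 encodes methionine synthase, the enzyme that uses methyltetrahydrofolate without cobalamin. In WT it read 908 and 860.0 in YPL, 97595 and 85321 at 1 h, and 26394 and 22575 at 3 h. In cho2 it read 1329 and 1261 in YPL, 33461 and 31025 at 1 h, and 13555 and 10339 at 3 h. The 6 groups stood apart in the same order as for MET2 and MET17, from WT at 1 h at the top to WT in YPL at the bottom. MET6 rose by 6.69 ± 0.17 in WT at 1 h (103-fold, limma adjusted p = 2.07e-19), which ranked 2 of 6546 among the rises, and by 4.64 ± 0.17 in cho2 (24.9-fold, limma adjusted p = 1.61e-16).

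MET13 and MET12 encode methylenetetrahydrofolate reductases, which make the folate that MET6 protein uses, and the product of MET13 is regarded as the main form. MET13 read 787 and 767 in WT in YPL, 5344 and 6632 at 1 h, and 3165 and 3695 at 3 h. In cho2 MET13 read 557 and 596 in YPL, 3862 and 4245 at 1 h, and 2407 and 2100.0 at 3 h. It rose by 2.94 ± 0.17 in WT at 1 h (7.70-fold, limma adjusted p = 2.91e-13) and by 2.81 ± 0.17 in cho2 (7.03-fold).

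MET12 went the other way. It read 1407 and 1426 in WT in YPL, 1199 and 1132 at 1 h, and 848 and 749 at 3 h. In cho2 it read 1405 and 1526 in YPL, 922 and 862 at 1 h, and 647 and 496 at 3 h. Both strains were lower at 3 h than at 1 h, and lower at 1 h than in YPL, with no overlap between the times. In WT the difference at 1 h was -0.28 ± 0.17 (limma adjusted p = 0.162) and passed in 4 of the 19 alternatives. Under TMM scaling the difference itself was larger (-0.44, limma adjusted p = 0.00253). With the deposited scaling it stayed at -0.28 and passed without the first or the second cho2 library at 3 h, which feed the shared estimate of spread. MET12 fell by 0.83 ± 0.17 in WT at 3 h (limma adjusted p = 0.000233), and in cho2 it fell by 0.72 ± 0.17 at 1 h (limma adjusted p = 0.00112) and by 1.37 ± 0.17 at 3 h (limma adjusted p = 2.64e-07).

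**Figure D1:**
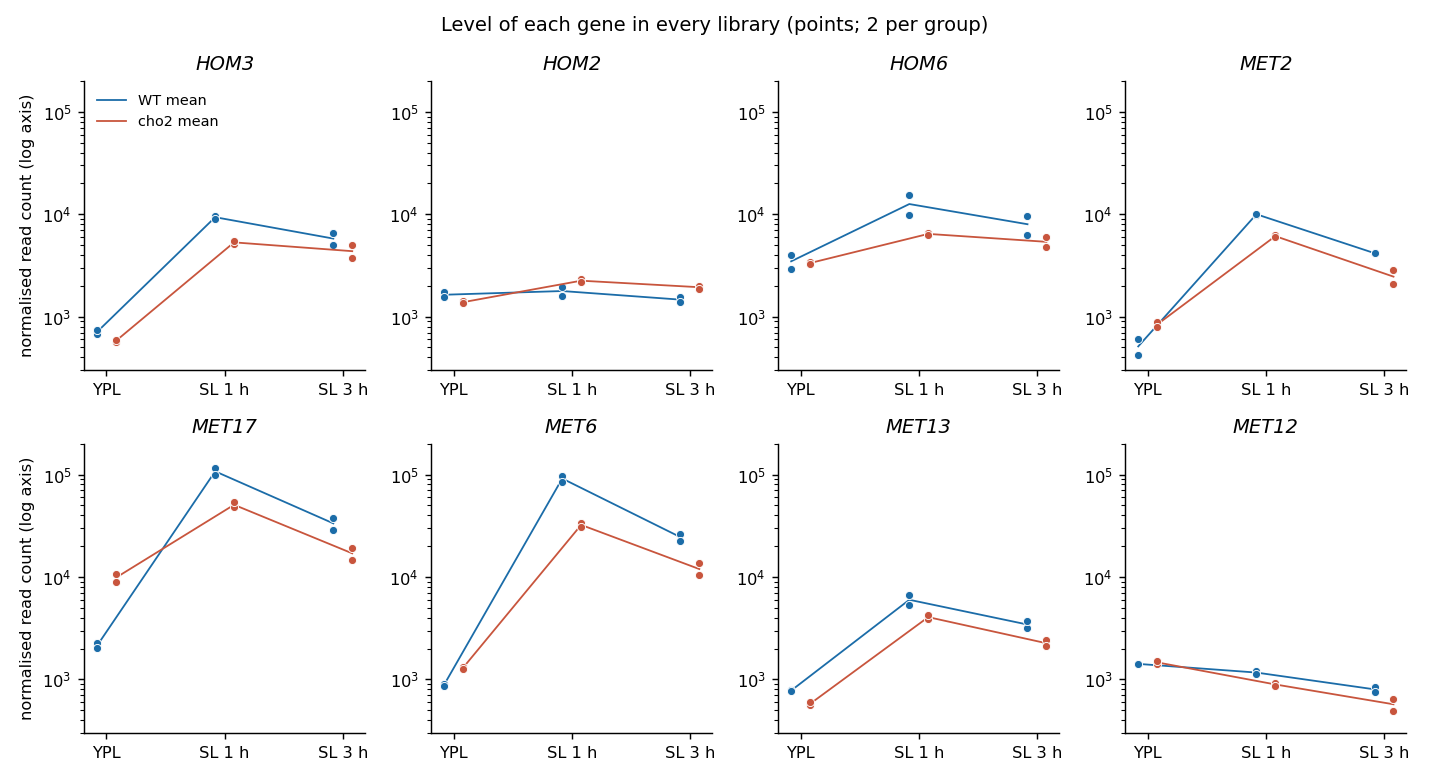
Normalised read count (log axis) of each of the 8 genes in YPL and at 1 h and 3 h in SL, with 1 point per library, 2 libraries a group, and lines through the group means of WT and cho2. MET17 and MET6 reach the top of the axis at 1 h (115879.5 and 97595 in the first WT library), HOM2 stays nearly flat in WT and is higher at 1 h and 3 h than in YPL in cho2, and MET12 descends.

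Which of the pair was the more abundant message differed between the media. Per kilobase of coding length, MET13 stood at 431 ± 7.91 and MET12 at 717 ± 6.91 in WT in YPL (SD, n = 2), and MET13 made up 37.1% to 38.0% of the pair. At 1 h in WT, MET13 stood at 3321 ± 505 and MET12 at 590.4 ± 24.1 per kilobase, and the share of MET13 was 83.0% to 86.5%. In cho2 the share of MET13 was 29.96% to 30.3% in YPL and 82.1% to 84.3% at 1 h. The SL libraries of both strains lay between 80.3% and 86.5%, and WT and cho2 overlapped at 1 h and at 3 h, while in YPL both cho2 libraries lay below both WT libraries. The strain differences in YPL were -0.43 ± 0.17 for MET13 (limma adjusted p = 0.541) and 0.05 ± 0.17 for MET12 (limma adjusted p = 0.995).

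**Figure D2:**
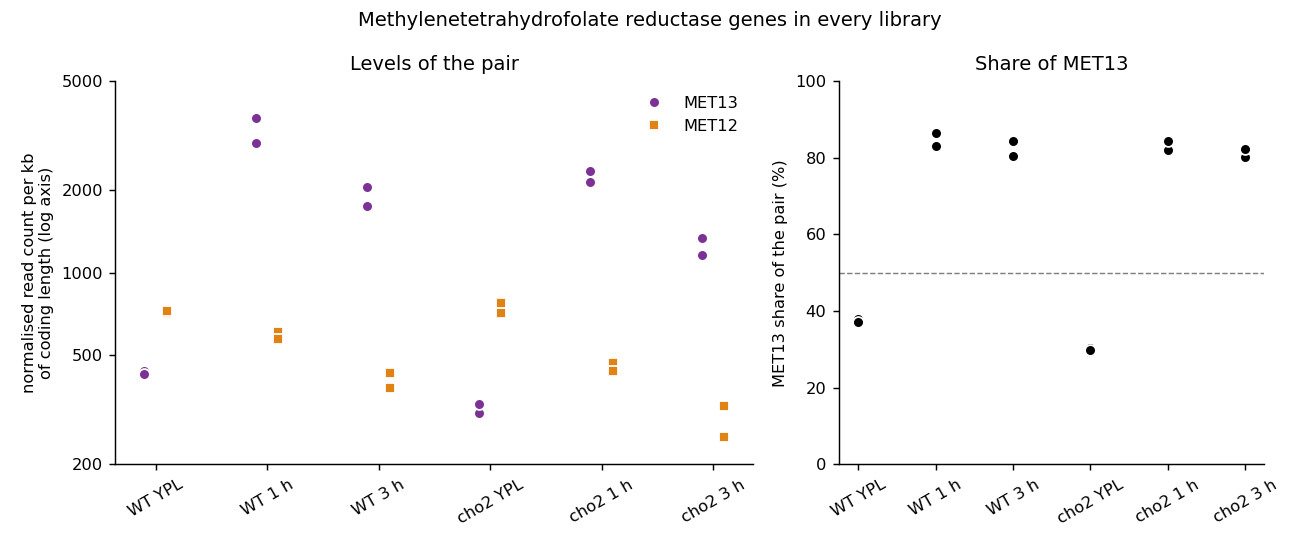
Left, normalised read count per kilobase of coding length (log axis) of MET13 and MET12 in each of the 12 libraries by group; right, the share of MET13 in the sum of the pair, with a dashed line at equal shares. MET12 is the more abundant in the 4 YPL libraries (MET13 share 29.96% to 38.0%) and MET13 in the 8 SL libraries (80.3% to 86.5%).

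Per kilobase of coding length, the order of the pathway's messages changed between media. In WT in YPL, HOM6 stood highest at 3214 ± 744 (SD, n = 2), followed by MET17 at 1594 ± 133 and HOM2 at 1491 ± 124, which did not differ beyond their spread. MET12 came next at 717 ± 6.91, and HOM3, MET13, MET6 and MET2 lay between 351 ± 88.1 and 447 ± 24.4. At 1 h in WT, MET17 stood at 80515 ± 8889 and MET6 at 39695 ± 3767, ahead of HOM6 at 11652 ± 3648, MET2 at 6847 ± 92.7 and HOM3 at 5911 ± 287. HOM2 and MET12 were the lowest of the 8 at 1 h in WT, at 1621 ± 222 and 590.4 ± 24.1. The cho2 strain already had MET17 on top in YPL, at 7367 ± 963 against 3091 ± 137 for HOM6.

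The threonine branch has THR1, for homoserine kinase, and THR4, for threonine synthase. THR1 fell by 0.85 ± 0.20 in WT at 1 h (limma adjusted p = 0.000725) and by 0.79 ± 0.20 in cho2 (limma adjusted p = 0.00165), while THR4 did not pass in either strain (0.03 ± 0.16 in WT, limma adjusted p = 0.902, and 0.21 ± 0.16 in cho2, limma adjusted p = 0.302). The level of HOM3 over that of THR1, both per kilobase, was 0.297 to 0.392 in the WT libraries in YPL, 6.79 to 9.81 at 1 h and 12.4 to 13.3 at 3 h. In cho2 the same ratio was 0.290 to 0.314 in YPL, 4.69 to 4.91 at 1 h and 12.4 to 13.5 at 3 h.

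At 3 h in WT, 6 of the 8 genes were still higher than in YPL and MET12 was lower, against 22.9% of all genes tested that passed as higher and 30.8% as lower. The rises were 4.79 for MET6 (27.7-fold), 3.96 for MET17 (15.7-fold), 3.04 for MET2, 3.02 for HOM3, 2.14 for MET13 and 1.19 for HOM6 on the log2 scale. Between 1 h and 3 h in WT, 7 of the 8 fell, against 25.5% of all genes tested that passed as lower, and HOM2 did not pass (log2 -0.27, limma adjusted p = 0.192). MET6 fell by 1.90 and MET17 by 1.70, while HOM3 fell by 0.70. The call on HOM6 was lost without the first WT library at 1 h (adjusted p = 0.319), without the second at 3 h (adjusted p = 0.296), with no filter, under TMM scaling and with only the groups compared. HOM3 was lost without the second WT library at 3 h (adjusted p = 0.0606), the shallow one. MET12 was lost without either WT library at 1 h (adjusted p = 0.0860 without the first and 0.0581 without the second) or the second at 3 h (adjusted p = 0.109).

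In cho2 all 8 genes passed at 1 h against YPL, 7 higher and MET12 lower, where 25.2% of all genes tested passed as higher and 24.6% as lower. The same split of 7 higher and MET12 lower was found at 3 h, where 19.8% passed as higher and 37% as lower. At 3 h MET17 was 1.73-fold above its YPL level in cho2 (log2 0.78 ± 0.19, limma adjusted p = 0.00118), against 15.7-fold in WT. MET6 was 9.22-fold above its YPL level in cho2 at 3 h. HOM2 at 3 h (0.49 ± 0.16, limma adjusted p = 0.014) was lost without the first cho2 library in YPL (adjusted p = 0.0587) or the second (adjusted p = 0.1002). HOM6 at 3 h (0.68 ± 0.22, limma adjusted p = 0.0104) was lost without the second cho2 library in YPL (adjusted p = 0.0527) or the first at 3 h (adjusted p = 0.146).

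Between 1 h and 3 h in cho2, MET2, MET17, MET6, MET13 and MET12 fell, which is 5 of the 8, against 23.8% of all genes tested. The 3 HOM genes did not pass, at log2 -0.30 for HOM3, -0.21 for HOM2 and -0.26 for HOM6. HOM3 passed without the first cho2 library at 3 h (adjusted p = 0.0246), and MET12 was lost without the first cho2 library at 1 h (adjusted p = 0.0718). No gene of the 8 passed the test of whether the strains differed in this later change (limma; 0 at an unadjusted p under 0.05 and 0 in edgeR), against 2.11% of all genes tested.

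**Figure D3:**
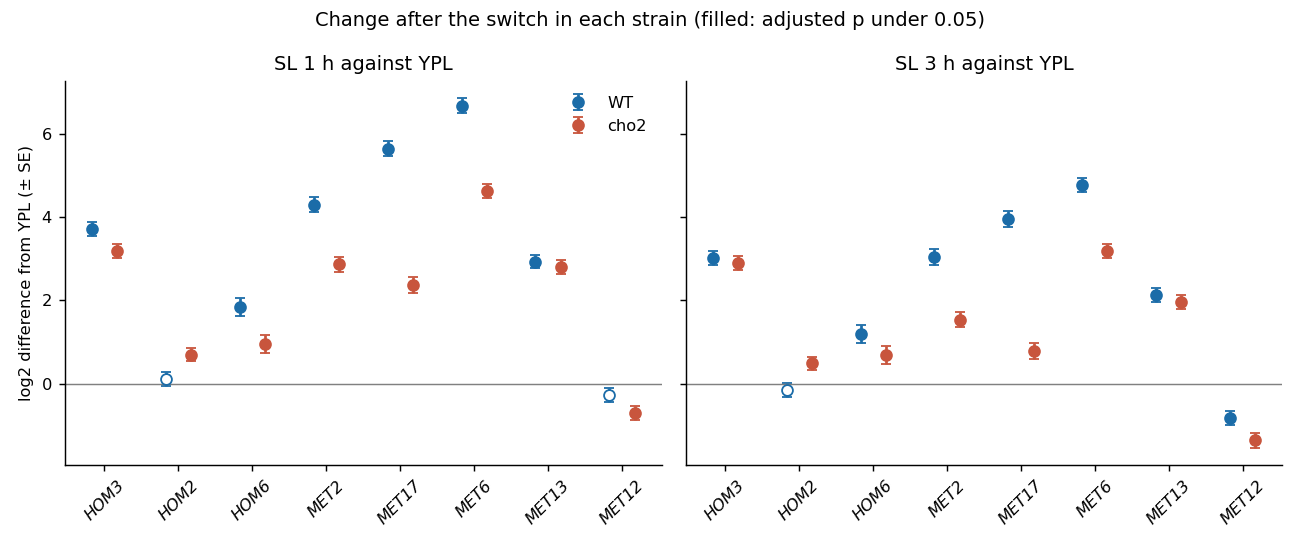
Log2 difference from YPL (± SE from limma) of each gene at 1 h (left) and 3 h (right) in WT and cho2, filled where the adjusted p was under 0.05. Each strain is set against its own YPL libraries, the same at both times. The MET17 points of WT and cho2 lie farthest apart (5.66 and 2.37 at 1 h), and those of MET13 and HOM3 lie close.

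In rich medium, 1 of the 8 genes passed between the strains. An unadjusted limma p under 0.05 was found for 4 of the 8, against 456 of the 6546 genes tested. In YPL, MET17 was higher in cho2 by 2.20 ± 0.19 (4.62-fold, limma adjusted p = 7.54e-08, passing in all 19 alternatives), where 0.336% of all genes tested passed as higher. YLR302C, which overlaps it, read 137 and 202 in WT in YPL and 768 and 842 in cho2. The steps on either side of MET17 gave values in the same direction that did not pass: MET2 was at 0.73 ± 0.18 (1.64-fold, limma adjusted p = 0.0923) and MET6 at 0.55 ± 0.17 (limma adjusted p = 0.287). MET13 was at -0.43 ± 0.17 (limma adjusted p = 0.541). The libraries of the strains did not overlap for 6 of the 8 genes, with cho2 above for MET2, MET17 and MET6 and below for HOM3, HOM2 and MET13, where 46.4% of all genes tested did not overlap. MET2 passed without the second WT library in YPL (log2 0.99, adjusted p = 0.0208), which was the higher of the WT pair. The aspartate end showed no passing difference, with HOM3 at -0.29 ± 0.17, HOM2 at -0.24 ± 0.16 and HOM6 at -0.04 ± 0.22. The median of the 8 was 0.01, and that of all genes tested was 0.01.

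At 1 h in SL the strain difference pointed down. Lower levels in cho2 passed for 6 of the 8 genes, against 5.59% of all genes tested that passed as lower, and the median of the 8 was -0.76 against -0.07 for all genes tested. MET6 was lowest relative to WT, at 0.353 of the WT mean (-1.50 ± 0.17, limma adjusted p = 1.61e-06). MET17, which had been higher in cho2 before the switch, was at 0.471 of the WT mean (-1.08 ± 0.19, limma adjusted p = 0.000507). HOM6 (-0.93 ± 0.22), HOM3 (-0.82 ± 0.17), MET2 (-0.71 ± 0.18) and MET13 (-0.56 ± 0.17) followed, with adjusted p of 0.00694, 0.00342, 0.0145 and 0.0365. HOM2 was at 0.34 ± 0.16 (limma adjusted p = 0.22) and MET12 at -0.39 ± 0.17 (limma adjusted p = 0.179). For all 8 genes the cho2 libraries did not overlap the WT libraries, HOM2 lying above and the other 7 below, but the same held for 64.5% of all genes tested.

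MET17 and MET6 at 1 h passed in all 19 alternatives, and the other 4 calls did not. HOM3 was lost without the first cho2 library at 1 h (adjusted p = 0.0743, with 0.000520 to 0.0743 over the alternatives). HOM6 was lost without the first WT library at 1 h (log2 -0.61, adjusted p = 0.173) or the second cho2 library (adjusted p = 0.0650). MET2 was lost without any 1 of the 4 libraries at 1 h, with adjusted p of 0.0683 and 0.0828 without the first and second WT library and 0.0996 and 0.147 without the first and second cho2 library. MET13 was lost without the second WT library at 1 h (adjusted p = 0.345), either cho2 library at 1 h (adjusted p = 0.364 and 0.161) or either cho2 library in YPL (adjusted p = 0.0609 and 0.0611). MET12 passed without either cho2 library at 3 h (adjusted p = 0.0332 without the first and 0.0330 without the second) and with only the groups compared (adjusted p = 0.0296).

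At 3 h, 4 of the 8 genes were lower in cho2, against 2.83% of all genes tested that passed as lower, with a median of -0.58 against -0.08 for all genes tested. These were MET6 at 0.488 of the WT mean (-1.04 ± 0.17, limma adjusted p = 0.00107), MET17 at 0.510 (-0.97 ± 0.19, limma adjusted p = 0.00481), MET2 at 0.590 (-0.78 ± 0.18, limma adjusted p = 0.0191) and MET13 at 0.657 (-0.61 ± 0.17, limma adjusted p = 0.0448). All 8 genes read lower in the second cho2 library at 3 h than in the first, and in that library the median gene also lay low. Without it, MET6 passed (-0.85, adjusted p = 0.0266), and MET17 (-0.77, adjusted p = 0.0670), MET2 (-0.56, adjusted p = 0.0984) and MET13 (-0.51, adjusted p = 0.0840) did not. Without both libraries numbered 2 at 3 h, MET17 (-0.96, adjusted p = 0.0391) and MET6 (-0.96, adjusted p = 0.0218) passed. Under TMM scaling all 4 passed, and MET12 with them (-0.43, adjusted p = 0.0332). With no filter, MET2 (limma adjusted p = 0.0539) and MET13 (limma adjusted p = 0.0575) were lost. Both were also lost with only the groups compared (limma adjusted p = 0.347 and 0.720). In edgeR MET13 was lost (edgeR adjusted p = 0.0511). The call on MET2 passed in 13 of the 19 alternatives.

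Other single libraries mattered at 3 h as well. Without the first WT library at 3 h, MET17 had an adjusted p of 0.0527 and MET2 of 0.0774, and without the second, MET2 had 0.0666. The call on MET13 passed in 6 of the 19 alternatives (adjusted p from 0.0201 to 0.720) and was lost without any 1 of 9 libraries. Without the first or the second library of a group its adjusted p was 0.0509 and 0.0505 for WT in YPL, 0.0753 and 0.0765 for cho2 in YPL, 0.0826 and 0.0826 for cho2 at 1 h, and 0.0692 and 0.228 for WT at 3 h, and the second cho2 library at 3 h made the ninth. HOM3 (adjusted p = 0.0289) and MET12 (adjusted p = 0.0119) passed without the first cho2 library at 3 h.

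**Figure D4:**
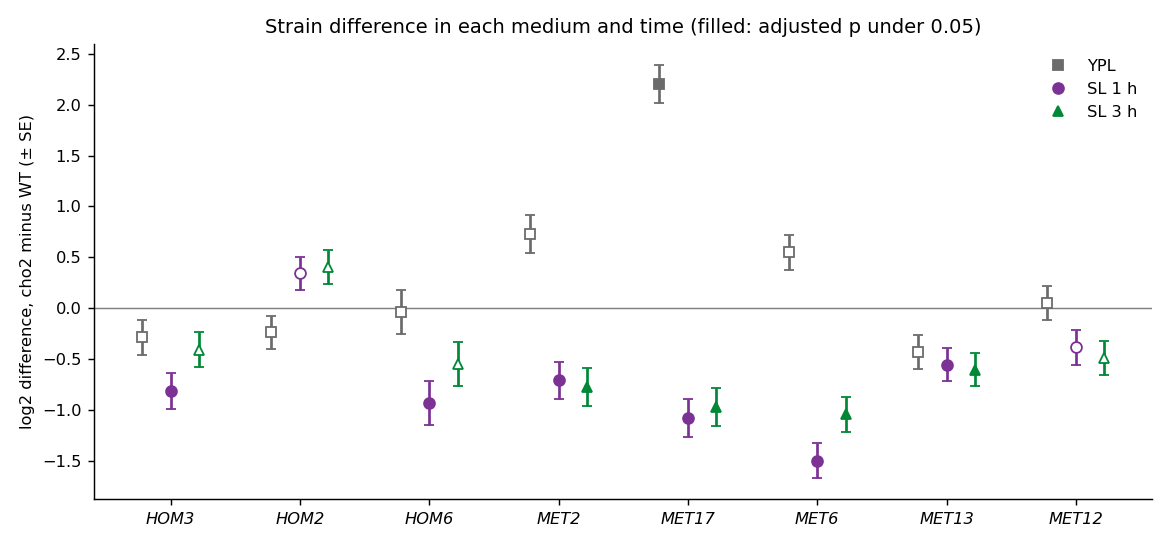
Log2 difference of cho2 minus WT (± SE from limma) of each gene in YPL (squares), at 1 h (circles) and at 3 h (triangles) in SL, filled where the adjusted p was under 0.05. MET17 lies at 2.20 in YPL and at -1.08 and -0.97 in SL; MET6 lies lowest at 1 h (-1.50), and HOM2 is the only gene above 0 at both SL times, with open symbols.

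Whether the switch moved the strains differently was tested directly, as the change in cho2 minus the change in WT. This comparison shares its YPL and SL libraries with those above, and its values are not separate evidence. At 1 h it passed for 3 of the 8 genes, all with the smaller change in cho2, against 1.99% of all genes tested that passed in that direction. They were MET17 (-3.29 ± 0.27, limma adjusted p = 1.29e-08), MET6 (-2.05 ± 0.24, limma adjusted p = 5.06e-06) and MET2 (-1.44 ± 0.26, limma adjusted p = 0.00123). At 3 h the same 3 genes passed, against 0.626% of all genes tested, with MET17 at -3.18 ± 0.27 (limma adjusted p = 7.65e-08), MET6 at -1.59 ± 0.24 (limma adjusted p = 0.000454) and MET2 at -1.51 ± 0.26 (limma adjusted p = 0.00179). MET17 and MET6 passed in all 19 alternatives at both times. MET2 at 3 h was lost without both libraries numbered 2 at 3 h (-1.29, adjusted p = 0.0624).

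The aspartate end and the folate pair did not pass this test at either time. HOM3 was at -0.53 ± 0.25 at 1 h (limma adjusted p = 0.334), HOM6 at -0.90 ± 0.31 (limma adjusted p = 0.129), MET13 at -0.13 ± 0.24 (limma adjusted p = 0.9) and MET12 at -0.43 ± 0.24 (limma adjusted p = 0.452). HOM6 passed at 1 h without the second WT library (-1.22, adjusted p = 0.0316), the lower of the WT pair, and HOM3 with only the groups compared (adjusted p = 0.0453). MET12 passed at 3 h without the first cho2 library (-0.73, adjusted p = 0.0482).

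The genes of neighbouring steps gave 40 further genes, all tested. The sulfide that MET17 protein uses comes from sulfate through the products of genes such as MET3 (ATP sulfurylase), MET14 (the kinase after it) and MET10 (a sulfite reductase subunit). Of 10 such genes, 5 were higher in cho2 in YPL, all 10 were lower at 1 h and 8 at 3 h. Of all genes tested, 0.336% passed as higher in YPL, 5.59% as lower at 1 h and 2.83% as lower at 3 h. MET3 was at 2.79 ± 0.18 in YPL, -1.36 ± 0.18 at 1 h and -1.15 ± 0.18 at 3 h, a change of sign like that of MET17. Among the 4 genes of aspartate supply and the threonine branch, AAT2, for cytosolic aspartate aminotransferase, was lower in cho2 at 1 h (-0.56 ± 0.17, limma adjusted p = 0.0434) and at 3 h (-0.63 ± 0.17, limma adjusted p = 0.0463). Both calls lay near the threshold: the first passed in 12 of the 19 alternatives (adjusted p from 0.00719 to 0.274) and the second in 8 (adjusted p from 0.0133 to 0.706), with edgeR at 0.0493 and 0.0591. THR1 was at -0.05 ± 0.20 at 1 h (limma adjusted p = 0.913). In YPL none of these 4 passed limma (0 at an unadjusted p under 0.05, 0 in edgeR).

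The methyl group that MET6 protein transfers enters the folate pool largely from serine. Of the 10 genes of folate supply, 4 were lower in cho2 at 1 h and 2 at 3 h, against 5.59% and 2.83% of all genes tested. SHM2, for the cytosolic serine hydroxymethyltransferase, was at 0.0843 of the WT mean at 1 h (-3.56 ± 0.17, limma adjusted p = 4.20e-13). The SAM synthetase genes SAM1 (-2.29 ± 0.18) and SAM2 (-1.26 ± 0.18), which use the methionine made, were lower at 1 h, and all 3 genes of the SAM cycle at 3 h. At 3 h the call on SAM2 passed in 14 of the 19 alternatives and that on SHM2 in 17. Both were lost with only the groups compared, and SAM2 also with no filter. Among the 4 genes that interconvert cysteine and homocysteine, 3 were lower at 1 h and 2 at 3 h, with CYS3 (cystathionine gamma-lyase) at -2.11 ± 0.17 and STR3 (cystathionine beta-lyase) at -1.97 ± 0.18 at 1 h. In YPL none of these 17 genes passed limma (3 at an unadjusted p under 0.05, 0 in edgeR).

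Regulators of the pathway moved in part. GCN4, whose protein level is set mainly by translation, read 10660 to 16453 in all libraries and did not pass between the strains. All 7 regulators, GCN4 among them, had an unadjusted limma p under 0.05 in WT at 1 h against YPL. Of these, 6 passed as higher, against 33.7% of all genes tested. MET28 and MET32, which encode partners of Met4, rose by 5.71 ± 0.19 and 4.53 ± 0.17 in WT at 1 h. In cho2 they were lower than in WT at 1 h, MET28 at -0.69 ± 0.19 (limma adjusted p = 0.0215) and MET32 at -1.01 ± 0.17 (limma adjusted p = 0.000375). Of the 7 regulators, 4 were lower in cho2 at 1 h and 1 at 3 h, against 5.59% and 2.83% of all genes tested. The 1 at 3 h was MET28 (-0.76 ± 0.19, limma adjusted p = 0.0254). The calls on MET28 passed in 15 of the 19 alternatives at 1 h (adjusted p from 0.00263 to 0.231) and in 14 at 3 h (adjusted p from 0.00633 to 0.456). Of the 2 genes for homocysteine methylation by other donors, MHT1 and SAM4, 1 was higher in cho2 in YPL and 1 lower at 1 h. The shares of all genes tested were 0.336% and 5.59%. Both calls were on MHT1, which uses S-methylmethionine as donor (1.63 ± 0.19 in YPL and -0.99 ± 0.19 at 1 h). SAM4 lay above 0 and did not pass at either point (0.48 in YPL and 0.47 at 1 h). Neither gene passed between the strains at 3 h.

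**Figure D5:**
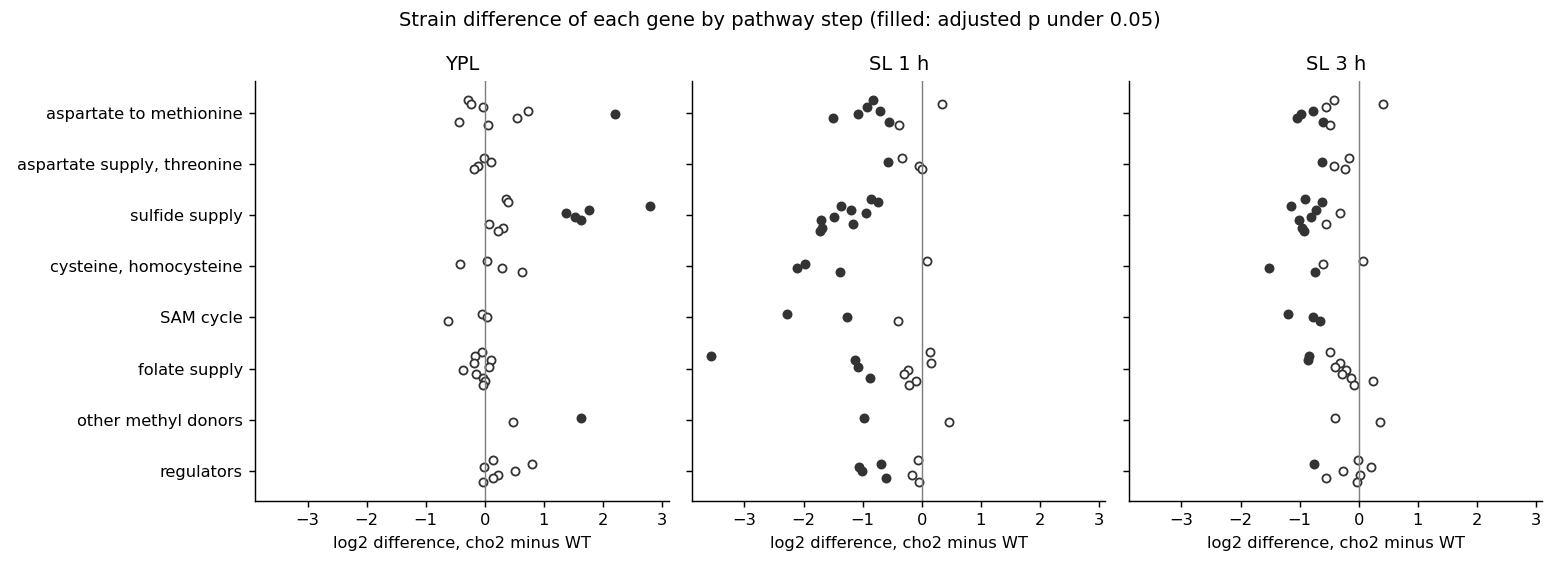
Log2 difference of cho2 minus WT of each gene, 1 point a gene, for the 8 genes from aspartate to methionine (top) and the 40 genes of neighbouring steps, in YPL and at 1 h and 3 h in SL, filled where the adjusted p was under 0.05. The filled points lie right of 0 in YPL and left of 0 in SL, with SHM2 farthest left at 1 h (-3.56).

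Across the 12 libraries, which share medium and strain, the levels of MET2 and MET6 (log2 of value + 1) had a Pearson r of 0.99 and those of HOM3 and MET13 of 0.98. HOM2 had r of 0.37 to 0.51 with the 6 genes that rose in WT at 1 h, and MET12 had r of -0.61 to -0.28 with the other 7. Likeness was ranked among 5216 genes, those tested that have a standard symbol and are outside the 8. The genes closest to MET17 were MET3 (r = 0.996) and MET14 (r = 0.993), and those closest to MET6 were GTO1 (r = 0.996) and MET32 (r = 0.991). GID10 (r = 0.989) and RAD55 (r = 0.986) were closest to HOM3, DMA2 (r = 0.989) and STR3 (r = 0.987) to MET13, and RBD2 (r = 0.984) and EXO1 (r = 0.982) to MET12. These r values describe 12 libraries in 6 groups and carry no test.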

How the data were processed

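Poly-A RNA from 12 yeast libraries was sequenced after stranded library preparation, per the labels' protocols. Per the submitters' processing notes, the authors used Bowtie, DESeq and build sacCer2. What they deposited is a normalised signal per gene. For tool versions, the counter, its annotation and strandedness of counting, the answer is not given in the sources used here. Within 0.01 reads, 100% of the values of every library were whole multiples of 1 step, and division by that step gave the recovered reads (3.17 M to 12.5 M a library). Counting error is small at these levels, and 2 libraries a group limit the precision.

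Groups came from the labels. Tests were made in R 4.3.3 by limma 3.58.1 (trend on log2 of value + 1, 1 mean per group, 12 libraries, 6 residual degrees of freedom) and covered 6546 genes, those that reached 10 in 2 libraries or more. Fold changes are therefore on that log2 scale, except ratios of group means, called fold. P-values were adjusted by Benjamini-Hochberg over all genes tested within each of 12 contrasts, and passed under 0.05. The spread of a gene is shared by all groups, and limma draws it toward that of genes of similar level. The ± SE and p-value of a gene therefore do not come from its own libraries alone. Every adjusted p in the text is from limma unless another tool is named.

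The text names the 8 genes, CHO2, mating-type genes, at most the 3 genes of a neighbouring list with the smallest adjusted p in a contrast, and the 2 genes closest to each of 5 members by Pearson r. THR1, THR4, GCN4, YLR302C, and MET3 at 1 h between strains, were named after their values were seen. The members and lists were chosen with earlier results of these data known. Of the 6685 names, 6006 matched the R64 reference, used only for names, coding lengths and overlap because the files' build differs; coding lengths were multiples of 3 for 96.3% of genes. Promoter and protein sequences were not used here and the motif search was not run.

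Alternatives were a pseudocount of 5, no filter, TMM scaling and a quasi-likelihood test on recovered reads (edgeR 4.0.16), a fit with a replicate block, a fit of only the groups compared, each library left out, and both 3 h libraries numbered 2 left out. The procedure was tested on simulated data. Python 3.11.15 with numpy 2.4.6, pandas 2.3.3 and matplotlib 3.10.9 made the tables and plots.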

Additional observations from a re-analysis of the deposited data

Results flagged for a closer look

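The change after the switch to SL differed between WT and cho2, by a test of the difference itself (limma, adjusted p under 0.05), for 3 of the 8 genes. At 1 h the change in cho2 minus the change in WT was -3.29 for MET17, -2.05 for MET6 and -1.44 for MET2 on the log2 scale. At 3 h it was -3.18 for MET17, -1.59 for MET6 and -1.51 for MET2. Of all genes tested, 1.99% passed below 0 at 1 h and 0.626% at 3 h. For MET17 the value joins a level that was higher in cho2 in YPL (2.20) with one that was lower at 1 h (-1.08), while for MET6 the strain difference in YPL did not pass (0.55). For MET2 the value joins 0.73 in YPL, which did not pass, with -0.71 at 1 h. The 2 WT libraries of MET2 in YPL differed 1.43-fold. Groups of 2 libraries are too small for a check of single outlying samples.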

How the results depend on the processing

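The differences of the 8 genes were recomputed under the 19 alternatives in 11 of the 12 contrasts, the difference between strains in the change from 1 h to 3 h being followed by counts only. Of them, 1595 kept direction and side of the threshold, 50 lost the call, 18 gained it and 9 changed sign. The sign changes were all in values that had not passed: HOM6 in YPL (-0.28 to 0.20 over the left-out libraries, 0.01 without the second cho2 library in YPL), MET12 in YPL (-0.012 to 0.11), HOM2 in WT at 1 h (-0.038 under TMM, -0.024 to 0.26), and, in the difference of changes between strains, MET13 at 1 h (-0.28 to 0.030), MET13 at 3 h (0.035 without both 3 h libraries numbered 2) and HOM3 at 3 h (-0.32 to 0.077). The cause was not tested.

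Genes of the 8 lower in cho2 at 3 h numbered 4, and 2 with no filter, with only the groups compared, and without both 3 h libraries numbered 2. With 1 library left out, genes of the 8 that passed numbered 1 to 2 between strains in YPL, 3 to 7 at 1 h and 1 to 6 at 3 h. They numbered 6 to 7 in WT at 1 h, 7 to 7 at 3 h and 4 to 7 from 1 h to 3 h, and in cho2 8 to 8, 6 to 8 and 4 to 6. The difference of changes passed for 3 to 4 at 1 h, 3 to 4 at 3 h and 0 to 0 from 1 h to 3 h.

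Over all genes, the strain difference in YPL called 27 genes, 16 with no filter, 46 without both 3 h libraries numbered 2, and 11 to 37 with 1 library left out. At 1 h it called 604, with 1001 under TMM, 1392 with only the groups compared, 1370 without both 3 h libraries and 192 to 1013 with 1 left out. At 3 h it called 225, with 133 with no filter, 358 under TMM, 38 with only the groups compared and 128 to 1115 with 1 left out. With 1 library left out, WT gave 3022 to 4274 at 1 h, 2770 to 4061 at 3 h and 1355 to 3155 between them, and cho2 2423 to 3840, 2922 to 4009 and 1221 to 2998. The difference of changes at 1 h called 236, with 148 with no filter, 424 under TMM, 581 with only the groups compared, 582 without both 3 h libraries and 97 to 419 with 1 left out. At 3 h it called 46, with 26 with no filter and 30 to 164 with 1 left out. From 1 h to 3 h it called 138, with 78 with no filter, 321 under TMM, 333 without both 3 h libraries and 53 to 437 with 1 left out.

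TMM scaling moved the share of calls that were higher from 39.4% to 52.8% between strains at 1 h, from 17.8% to 34.6% at 3 h, from 30.3% to 51.0% in WT from 1 h to 3 h, from 34.9% to 45.2% in cho2 at 3 h against YPL, from 25.2% to 50.3% in cho2 from 1 h to 3 h, and from 10.9% to 25.8% in the difference of changes at 3 h. It moved the median of all genes by -0.15 in WT at 1 h against YPL, by 0.19 from 1 h to 3 h in either strain and by 0.13 in cho2 at 3 h against YPL.

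No label says what a shared replicate number marks, and deviations of same-numbered libraries had r of -0.20 to 0.54 over 15 pairs of groups, 6 of them over 0.1, so the numbers were not taken as pairing. With the replicate block, 4 of the 8 genes passed the difference of changes at 1 h, HOM6 being the one added (adjusted p = 0.0239), and the counts of the 8 in the other 11 contrasts were those without it. Over all genes the block called 36 between strains in YPL, 698 at 1 h and 301 at 3 h. The second WT library at 3 h, at 3.17 M reads, and 2 libraries a group limit what could be detected.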
